A study of Mus musculus with 10 samples.

Results

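The baseline difference between untreated mouse embryonic fibroblasts with a conditional Dicer knockout (CDKO) and untreated wild-type (WT) fibroblasts was measured over all probe sets with a usable signal. Members were the probe sets with a group mean log2 value of 4 or more in either untreated group, with the Affymetrix control probe sets left out. This gave 20077 of 45037 probe sets, and 10434 genes when each gene with a single symbol was represented by its probe set with the highest mean. The difference was the mean of the 2 untreated CDKO arrays minus the mean of the 2 untreated WT arrays. A difference of 1 on the log2 scale is a 2-fold difference.

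RNA of 10 fibroblast samples was hybridised to Affymetrix expression arrays in 5 groups of 2. The CDKO cells were untreated or were kept for 4 days with 4-hydroxytamoxifen (OHT), at 1 µM in 1 group and 5 µM in another. The WT cells were untreated or kept with OHT at 5 µM. All were grown in the same medium with serum. No OHT was given to either group of the baseline comparison, so both untreated groups precede any induced loss of Dicer as far as the labels say. The labels give no strain, age of embryo or number of embryos or clones, and do not name the Cre recombinase or its promoter. Separate cultures are not named for replicates either, so p values here measure the spread between these arrays, which may be technical. With 1 CDKO source and 1 WT source, genotype and any other difference between the cell preparations cannot be told apart.

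Dicer is the enzyme that cuts microRNA precursors to their mature form, and loss of it in fibroblasts is known to raise cell-cycle inhibitors and slow growth. Embryonic fibroblasts are grown out of whole or eviscerated embryos, so a culture can hold cells of several embryonic tissues at first. Over passages such cultures are known to gain Cdkn2a expression and to lose dividing cells.

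Array medians lay between 3.03 and 3.16, and 41.8% to 43.2% of probe sets reached a value of 4 in an array. A value under 4 was therefore close to background, and a difference from such a value cannot be read as a fold of the transcript. The WT replicates lay closer together than the CDKO replicates, with a median SD over probe sets of 0.10 against 0.31 (log2, n = 2 arrays each). The 18S ribosomal RNA controls also differed, at 6.87 and 8.44 in untreated CDKO and 11.6 and 11.2 in untreated WT. In the other 6 arrays they lay between 5.21 and 6.16, apart from 10.2 in replicate 2 of CDKO cells at 1 µM. The 3' minus 5' signal of the Gapdh controls was 0.07 and -0.11 in untreated CDKO and 0.89 and 0.67 in untreated WT. It was 1.58 in that 1 array at 1 µM. The untreated WT arrays thus stood apart on both measures, and the part of either in the differences below was not tested except where a value is given. The fibroblast markers gave the labelled cell type in both lines. All 12 of them were measured, none passed the test, and their median difference was -0.17.

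Between untreated CDKO and untreated WT cells, 496 of 10434 genes passed the test (limma, Benjamini-Hochberg adjusted p under 0.05), which is 4.75% of the genes. Of these, 208 were higher in CDKO (1.99%) and 288 were lower (2.76%). Over probe sets, 1379 passed (6.87%), 484 of them higher (2.41%) and 895 lower (4.46%). The median difference of the higher genes was 1.52 and that of the lower genes was -1.86, against -0.05 over all genes. A total of 47 genes were higher by more than 2 and 126 were lower by more than 2. The lower genes more often ended near background. In 109 of the 288 the CDKO mean was under 4, while 19 of the 208 higher genes had a WT mean under 4. These genes reached the filter through the other line alone, so their direction followed from their entry. The array left out changed the count of probe sets from 1379 to 326 or 257 without WT untreated replicate 1 or 2, to 506 without CDKO untreated replicate 2, to 607 without either WT array at 5 µM, and to 3283 without either CDKO array at 1 µM.

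**Figure D1:**
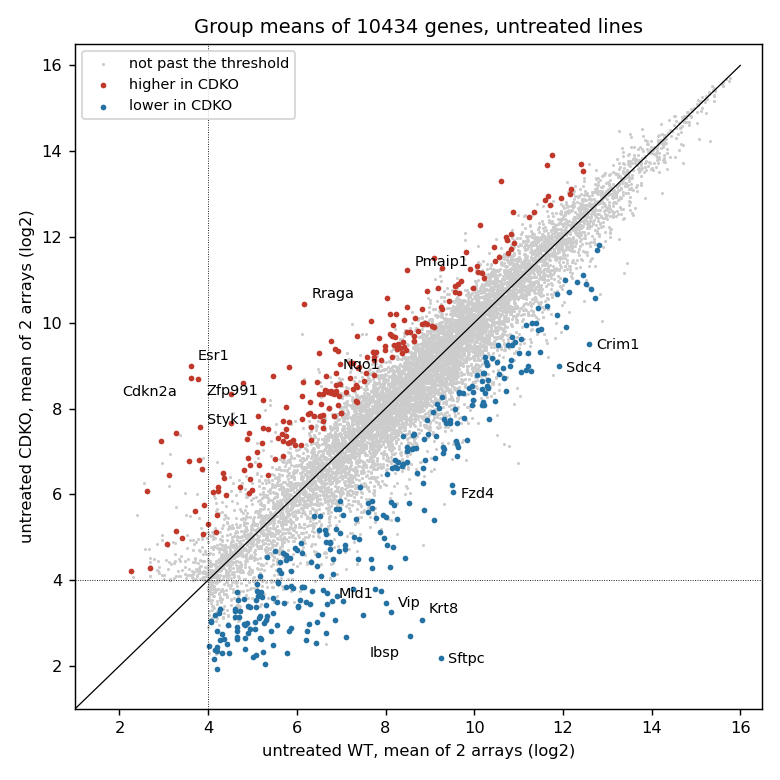
Group mean of untreated CDKO cells (vertical axis, log2) against that of untreated WT cells (horizontal axis, log2), each over 2 arrays, for 10434 genes. Red points are the 208 genes higher in CDKO, blue points the 288 lower ones, grey points the rest, and dotted lines mark a value of 4; many blue points lie under the horizontal dotted line.

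Dicer1 itself was represented by 2 probe sets. For the brighter probe set the values were 7.09 and 5.99 in CDKO and 8.97 and 9.10 in WT. Both CDKO arrays lay below both WT arrays, with a difference of -2.50 ± 0.83 (SE) that did not pass (adjusted p = 0.118). The other probe set gave 6.33 and 5.93 against 7.31 and 7.16, and this difference of -1.11 ± 0.26 passed (adjusted p = 0.0467). Whether either probe set reads the exons to be deleted was not known here. The brighter Dicer1 probe set also ran at 5.40 and 8.30 in CDKO cells at 1 µM. The higher value came from the array with an 18S value of 10.2. At 5 µM this probe set measured 5.83 and 5.78 in CDKO and 7.64 and 7.19 in WT. The probe set that passed measured 5.90 and 5.49 in CDKO and 5.90 and 5.94 in WT at 5 µM. A difference of the baseline size was thus not seen there for the probe set that passed. The other 14 measured genes of microRNA processing and silencing, among them Drosha, Dgcr8 and the Argonaute genes, did not pass. The median of all 15 was -0.20.

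Esr1, which encodes estrogen receptor alpha, the receptor that OHT binds, had the largest positive difference. Its values were 8.66 and 9.34 in CDKO and 4.57 and 2.63 in WT. The groups did not overlap, and the difference was 5.39 ± 0.71 (adjusted p = 0.00734). This probe set reached the filter of 4 through untreated CDKO alone, so its direction followed from its entry. The other 2 Esr1 probe sets stayed near background in both lines, with means of 3.29 against 3.12 and 2.79 against 3.38, so that 1 of 3 probe sets carried the difference. In CDKO cells at 1 µM and 5 µM the same probe set had means of 9.10 and 9.65, and in WT cells at 5 µM it had 3.80.

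Cdkn2a, which encodes cell-cycle inhibitors that accumulate as fibroblasts are passaged, came next. Values were 9.07 and 8.34 in CDKO against 3.45 and 3.78 in WT, a difference of 5.09 ± 0.48 (adjusted p = 0.00235). Both WT values were near background and both CDKO values were far above it. The gene thus reached the filter of 4 through untreated CDKO alone, and its direction followed from its entry. WT cells at 5 µM had 6.74 and 6.87, above untreated WT and below every CDKO array. Its neighbour Cdkn2b on chromosome 4, another inhibitor of the same kinases, was higher by 1.30 ± 0.27 (12.89 and 13.03 against 11.71 and 11.62, adjusted p = 0.0353). Among the other tested genes beside them, Elavl2 was lower (-2.62, adjusted p = 0.0191), while Mtap had a difference of 0.96 (adjusted p = 0.221) and Klhl9 of 0.00 (adjusted p = 0.999). The region thus did not differ in 1 direction.

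Other genes with large positive differences had varied roles. Zfp991, a zinc-finger gene, measured 8.93 and 8.47 against 3.98 and 3.55 (4.93 ± 0.52, adjusted p = 0.00334), although its other tested probe set gave -0.49. Rraga, a GTPase that helps signal amino acid supply to the growth kinase mTOR, measured 11.02 and 9.87 against 6.34 and 6.00 (4.27 ± 0.51, adjusted p = 0.00534). Untreated WT stood alone for Rraga, as the other 8 arrays lay between 8.36 and 11.02. Styk1, a receptor-like kinase, was higher by 3.75 ± 0.36. Prg4, which encodes the joint lubricant lubricin, was higher by 3.81 ± 0.86, and Serpina3n, an acute-phase protease inhibitor, by 3.22 ± 0.56. The platelet chemokine gene Ppbp was higher by 3.29 ± 0.71 and Ttc9 by 3.32 ± 0.47. Trim12a was higher by 3.48 ± 0.74, with unequal CDKO values of 7.16 and 5.02. Zfp991, Styk1, Serpina3n, Ttc9 and Trim12a reached the filter of 4 through untreated CDKO alone, so their direction followed from their entry.

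Among genes with means of 6 or more in both lines, where a difference can be read as a ratio, the largest after Rraga were Medag, Rnf25 and Pmaip1. Rnf25, a ubiquitin ligase, measured 9.46 and 9.13 against 6.11 and 6.90, which is 6.94-fold higher (2.79 ± 0.33, adjusted p = 0.00503). Spr, the last enzyme in the making of the cofactor tetrahydrobiopterin, measured 9.31 and 9.49 against 6.70 and 7.04 (2.53 ± 0.21, adjusted p = 0.00138). Spr had the smallest error of this group, and the other 8 arrays lay between 8.94 and 9.62, all above untreated WT. Laptm4a, a lysosomal membrane protein, was 6.49-fold higher, the retinoic acid carrier Crabp2 5.87-fold and the lipid carrier Apod 5.59-fold. For Medag the fold was 7.05.

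The 3 largest negative differences were those of Sftpc, Ibsp and Krt8, which are on the lists of lung, bone and epithelial markers. Sftpc, which encodes surfactant protein C of the lung alveolus, had values of 2.20 and 2.17 in CDKO and 9.17 and 9.33 in WT. The difference was -7.06 ± 0.23 (adjusted p = 2.04e-05), the largest of all genes tested. The other Sftpc probe set was not tested and lay near background, with means of 3.13 in CDKO and 3.08 in WT. Ibsp, bone sialoprotein, measured 2.76 and 2.66 against 8.40 and 8.68 (-5.84 ± 0.19). The other Ibsp probe set, not tested, had 2.86 and 2.95 against 3.01 and 4.41. The epithelial keratin Krt8 measured 2.97 and 3.15 against 8.59 and 9.04 (-5.76 ± 0.21), and all 3 of its probe sets passed in the same direction. At the probe sets with the highest mean, these 3 genes were at background in CDKO cells and well above it in WT cells. They were also at background in WT cells at 5 µM, with means of 2.20, 2.75 and 2.97, so that the signal was seen in the untreated WT arrays and not in the other 8. In the CDKO array with an 18S value of 10.2 they stood at 2.18, 2.70 and 2.94. In that same array Cit, lower in untreated CDKO as described below, stood at 5.26 against 2.58 in its replicate.

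The same pattern held for many of the lower genes. Both untreated WT arrays lay above all 8 other arrays in 256 of the 288 lower genes (88.9%), against 1462 of 10434 genes overall (14.0%). In 66 of the 288, all 8 other arrays were also under 4, as in 87 of 10434 genes overall. Such genes could reach the filter of 4 through untreated WT alone. Of the 208 higher genes, 178 had both untreated WT arrays below all 8 others (85.6%), against 12.1% of all genes. The large share among called genes follows in part from the choice, since the call already set untreated WT apart from untreated CDKO.

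**Figure D2:**
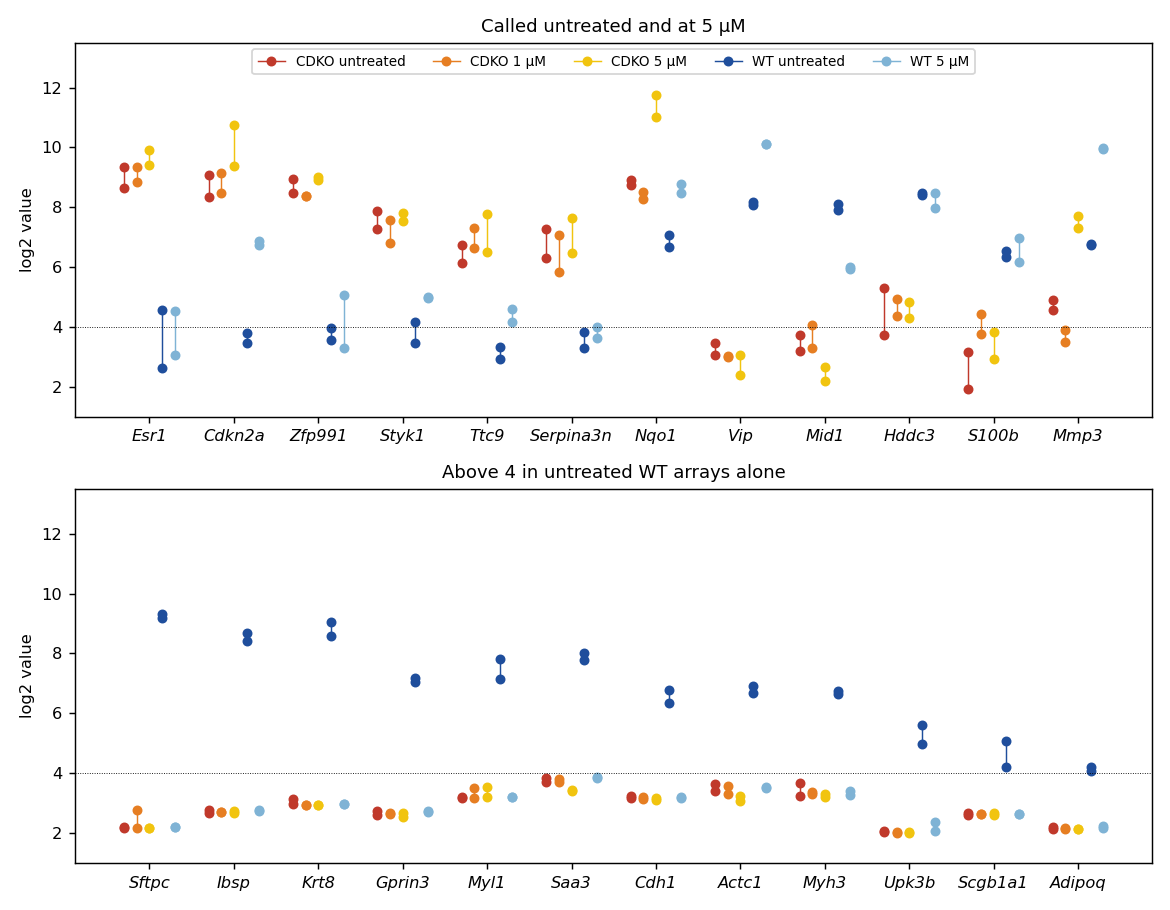
Log2 value of each array (points) for 12 genes called in both the untreated and the 5 µM comparison (upper panel) and 12 genes above 4 in the untreated WT arrays alone (lower panel); lines join the 2 arrays of a group and the dotted line marks 4. Sftpc stood at 9.17 and 9.33 in untreated WT and under 3 in the other 8 arrays, while for Esr1 and Vip no CDKO array overlapped any WT array.

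Skeletal and cardiac muscle genes were the cell type list with the most calls. Of 20 genes listed, 8 were measured and 6 were lower in CDKO, with a median difference of -3.11. Over all genes 2.76% were called lower. Myl1, Myh3, Actc1 and Tnni1 reached the filter of 4 through untreated WT alone, so their direction followed from their entry. Myl1, a fast muscle myosin light chain, measured 3.20 and 3.16 against 7.82 and 7.16 (-4.31 ± 0.27, adjusted p = 0.000424). Embryonic myosin heavy chain Myh3 measured 3.66 and 3.23 against 6.64 and 6.75, and cardiac actin Actc1 3.63 and 3.39 against 6.68 and 6.90. The troponin gene Tnnt2 was above background in both lines, at 6.21 and 6.25 against 9.54 and 9.44 (-3.26 ± 0.60), which is 9.59-fold. Tnnc1, a troponin outside the list, was 6.01-fold lower. Des and Acta1 did not pass, with differences of -0.83 and 1.23. Mef2c, a transcription factor of muscle and other tissues, measured 5.10 and 2.47 in CDKO against 7.71 and 7.82 in WT (-3.98 ± 0.76). Its CDKO arrays differed from each other by more than those of the muscle structural genes did. Mef2c also reached the filter through untreated WT alone.

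Epithelial markers had negative differences in all measured members. Of 7 measured, 3 passed, all lower, against 2.76% of all genes called lower, and the median was -2.35. The adhesion gene Cdh1 measured 3.24 and 3.16 against 6.78 and 6.34 (-3.36 ± 0.21), and Krt7 3.87 and 4.72 against 8.28 and 7.94 (-3.81 ± 0.62). Unlike Krt8, Krt7 kept a mean of 7.16 in WT cells at 5 µM. Krt18, the usual partner of Krt8, had unequal CDKO values of 5.84 and 8.51 against 9.54 and 9.50 and did not pass (adjusted p = 0.109). Both measured lung genes were lower, Sftpc and the airway gene Scgb1a1 (2.66 and 2.59 against 4.21 and 5.08). Both reached the filter of 4 through untreated WT alone, as did Cdh1, Krt8, Upk3b and Msln. For these genes a lower value in CDKO followed from their entry. The other 7 of the 9 lung genes listed did not reach the filter, among them Sftpa1, Sftpb and Nkx2-1. Of 4 mesothelial markers Upk3b (-3.25 ± 0.25) and Msln (-0.93 ± 0.21) were lower, while Upk1b and Wt1 did not pass. No erythroid gene was measured, and the 1 measured liver and gut gene, Afp, did not pass.

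Adipocyte and neural lists held a mixture. Of 5 adipocyte genes 3 were lower, against 2.76% of all genes. The adipogenic factor Cebpa measured 5.71 and 5.10 against 9.19 and 8.99 (-3.69 ± 0.63, 12.9-fold), the fatty acid carrier Fabp4 was 3.68-fold lower, and Adipoq lay at background in CDKO and barely above it in WT (4.08 and 4.20). Of 9 neural and glial genes, the neuropeptide gene Vip, the calcium-binding S100b and the stem cell factor Sox2 were lower and none was higher. Adipoq, Vip, S100b and Sox2 reached the filter of 4 through untreated WT alone, so their direction followed from their entry. Vip measured 3.46 and 3.05 against 8.06 and 8.19 (-4.87 ± 0.27, adjusted p = 0.000214). Unlike the lung and muscle genes, Vip was also high in WT cells at 5 µM, at 10.1 in both arrays. S100b measured 1.94 and 3.15 against 6.55 and 6.33 and had 6.16 and 6.96 in WT at 5 µM.

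Macrophage and leukocyte genes leaned lower without passing. Of 15 measured, 14 had a negative difference, 13 had both CDKO arrays below both WT arrays, against 32% of all genes, and 0 passed, with a median of -1.54. The receptor gene Csf1r measured 9.46 and 7.66 against 10.49 and 10.63, and the complement gene C1qa 8.34 and 7.67 against 9.52 and 9.58. The CDKO arrays differed from each other for these genes, with list medians of -0.72 and -1.88 relative to untreated WT. Fewer cells of a type and less RNA per cell cannot be told apart in such bulk samples. Among endothelial genes Emcn, an endothelial sialomucin, was higher in CDKO (6.41 and 5.76 against 4.20 and 4.25, 1.86 ± 0.26), and the other measured gene, Egfl7, did not pass.

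**Figure D3:**
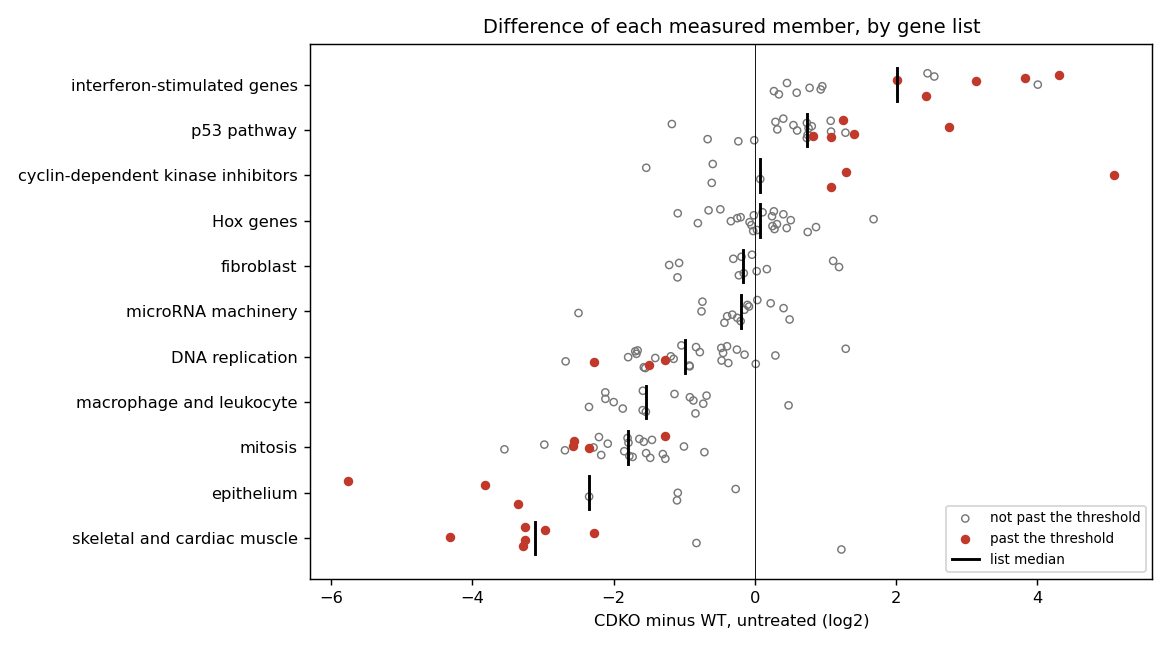
Untreated CDKO minus untreated WT difference (horizontal axis, log2) of each measured gene in 11 gene lists. Filled points passed the test, open points did not, and bars mark list medians, which run from 2.02 for interferon-stimulated genes to -3.11 for muscle genes.

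Genes of mitosis had lower values in CDKO arrays. All 25 measured had both CDKO arrays below both WT arrays, against 32% of all genes, and the median difference was -1.79. A total of 4 passed, Kif23, Plk1, Espl1 and Ube2c. Plk1, a kinase that drives entry into and passage through mitosis, measured 7.30 and 7.25 against 9.80 and 9.85 (-2.55 ± 0.51, 5.87-fold). Kif23, a kinesin of the dividing cell's midzone, measured 8.32 and 7.21 against 10.28 and 10.40 (-2.58 ± 0.59). Ube2c, which tags mitotic regulators for destruction, measured 9.57 and 9.40 against 10.71 and 10.79, a smaller difference of -1.27 ± 0.23. The proliferation marker Mki67 had 9.57 and 8.004 against 11.80 and 11.74 and did not pass (adjusted p = 0.0754). Citron kinase, Cit, which acts in cell separation, was outside the list and was at background in CDKO (2.95 and 2.57 against 6.86 and 6.48). Cit reached the filter of 4 through untreated WT alone, so its direction followed from its entry.

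The CHR element, a short promoter motif of genes expressed in late cell cycle, was searched as TTTGAA on both strands of RefSeq promoter windows (GRCm38.p6, 250 bases before to 50 after the start). It was found in 17 of 22 mitosis genes with a window, in 14% of the 8500 tested genes with a window and in 17.9% of 32851 windows. The windows of Plk1 (chr7:122159185-122159484, plus strand) and Ube2c (chr2:164769679-164769978, plus strand) are shown as examples of lower genes of this list, with the motif in capitals. In the Ube2c window it reads on the opposite strand.
Plk1: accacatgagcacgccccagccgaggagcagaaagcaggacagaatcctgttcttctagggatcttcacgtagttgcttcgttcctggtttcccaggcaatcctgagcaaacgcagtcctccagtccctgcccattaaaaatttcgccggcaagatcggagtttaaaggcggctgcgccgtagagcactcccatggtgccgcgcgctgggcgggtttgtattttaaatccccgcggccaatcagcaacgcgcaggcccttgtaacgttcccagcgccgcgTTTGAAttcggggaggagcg
Ube2c: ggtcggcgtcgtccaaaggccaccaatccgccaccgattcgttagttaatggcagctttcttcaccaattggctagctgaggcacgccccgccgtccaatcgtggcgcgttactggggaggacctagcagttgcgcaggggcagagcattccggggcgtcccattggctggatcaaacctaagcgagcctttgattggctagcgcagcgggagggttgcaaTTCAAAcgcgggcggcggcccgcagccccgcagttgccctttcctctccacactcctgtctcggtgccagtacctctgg
A match describes the letters in the window only. Of the 25 mitosis genes, 3 had no window in the table.

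DNA replication genes showed a smaller shift. Of 28 measured, 22 had both CDKO arrays below both WT arrays, against 32% of all genes, the median was -0.98, and 3 passed, all lower. These were DNA ligase Lig1 (-2.28 ± 0.53), the helicase subunit Gins1 (-1.50 ± 0.31) and the helicase subunit Mcm3 (8.39 and 8.40 against 9.72 and 9.61, -1.27 ± 0.30). The sliding clamp gene Pcna had a difference of -0.14 and did not pass. Against 2.76% of all genes called lower, the lists had 4 of 25 and 3 of 28. These calls depended on single arrays. Mitosis had 2 calls without CDKO untreated replicate 1 and 0 without any of the other 3 untreated arrays, and replication had 0 without any of the 4.

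Among inhibitors of the cell cycle and p53 targets, the genes that passed were higher. Of 7 cyclin-dependent kinase inhibitors 3 passed, Cdkn2a, Cdkn2b and Cdkn1a, against 1.99% of all genes called higher. Another 3 of the 7 had negative differences, and the list median was 0.08. Cdkn2a reached the filter of 4 through untreated CDKO alone, so its direction followed from its entry. Cdkn1a, the main inhibitor induced by p53, measured 13.32 and 13.74 against 12.49 and 12.42 (1.08 ± 0.24, adjusted p = 0.0428). Of 22 p53 pathway genes 5 were higher, against the same 1.99%, and 4 had negative differences that did not pass. A total of 15 had both CDKO arrays above both WT arrays, against 27.7% of all genes, and 3 had both below. Pmaip1, which encodes the death-promoting protein Noxa, measured 10.51 and 11.97 against 8.56 and 8.41 (2.75 ± 0.50, 6.74-fold). The death receptor gene Fas was 2.64-fold higher and Trp53inp1 2.38-fold. Ddit4, the fifth called gene, was chosen for mention after its values were seen (0.83, adjusted p = 0.045). The p53 regulator Mdm2 had 1.08 and did not pass. The p53 calls fell to 3 and 1 without CDKO untreated replicate 1 and 2 and to 0 without either untreated WT array. Those of the kinase inhibitors fell to 1 without CDKO untreated replicate 2 or either untreated WT array.

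Interferon-stimulated genes, which cells switch on when they sense viral nucleic acid or interferon, had higher values in untreated CDKO arrays. Of 25 genes listed, 15 were measured and all 15 had a positive difference. In 14 both CDKO arrays lay above both WT arrays, against 27.7% of all genes, and the median was 2.02. Usp18, with a WT mean of 2.93, reached the filter of 4 through untreated CDKO alone. The direction of any such member followed from its entry. A total of 5 passed, against 1.99% of all genes called higher. These were Usp18, Rtp4, Ifit3, Bst2 and Oasl2, the last named after its values were seen. Ifit3, an antiviral protein that binds with other Ifit proteins, measured 9.52 and 8.42 against 5.45 and 6.22 (3.14 ± 0.57, 8.79-fold, adjusted p = 0.0228). Bst2, tetherin, which holds budding virus at the cell surface, measured 9.75 and 8.95 against 6.99 and 6.87 (2.42 ± 0.42, 5.36-fold). Usp18, which damps interferon signalling, was near background in WT (2.76 and 3.10) and at 7.42 and 7.07 in CDKO (4.31 ± 0.95). Rtp4 measured 8.94 and 7.75 against 3.84 and 5.20 (3.82 ± 0.81).

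The core of the interferon-stimulated response element was searched as a pair of GAAA runs with 2 bases of any kind between them, on both strands of the same windows. It was found in 9 of 13 interferon-stimulated genes with a window, in 3.48% of the 8500 tested genes and in 3.44% of all windows. The windows of Ifit3 (chr19:34583279-34583578, plus strand) and Bst2 (chr8:71537423-71537722, minus strand) each hold 2 matches, shown in capitals, and were chosen because both genes passed. The matches in Ifit3 read on the opposite strand and those in Bst2 overlap.
Ifit3: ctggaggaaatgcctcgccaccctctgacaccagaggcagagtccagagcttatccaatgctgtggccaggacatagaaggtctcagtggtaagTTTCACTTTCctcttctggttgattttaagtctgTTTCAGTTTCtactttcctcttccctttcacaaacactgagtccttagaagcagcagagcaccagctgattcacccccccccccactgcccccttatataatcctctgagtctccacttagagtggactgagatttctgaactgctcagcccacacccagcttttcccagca
Bst2: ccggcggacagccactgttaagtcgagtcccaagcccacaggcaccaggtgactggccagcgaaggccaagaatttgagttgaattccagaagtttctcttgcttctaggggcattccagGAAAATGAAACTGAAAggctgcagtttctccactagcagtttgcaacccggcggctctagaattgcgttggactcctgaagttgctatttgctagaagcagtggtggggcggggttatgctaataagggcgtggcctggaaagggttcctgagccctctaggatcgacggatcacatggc
The windows of Ifi35, Ifit2, Oasl2 and Xaf1 did not hold these letters.

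The interferon difference was not seen between the lines at 5 µM. There the median of the 15 genes was -0.50 and 0 passed. Usp18 had means of 6.00 in CDKO and 8.45 in WT at 5 µM, a difference of -2.45 that did not pass (adjusted p = 0.285). Relative to untreated WT, the list median was 1.69 and 1.75 in untreated CDKO, and 1.36 and 0.78 in WT cells at 5 µM. In CDKO cells at 5 µM it was 0.73 and 0.56. It was 0.96 and 0.01 in CDKO cells at 1 µM, and the array at 0.01 was the one with an 18S value of 10.2 and a Gapdh 3' minus 5' signal of 1.58. In it Usp18 stood at 2.66, Rtp4 at 5.17 and Ifit3 at 6.88, against 6.23, 7.59 and 8.51 in its replicate. The interferon values were thus lowest in that array at 1 µM and in untreated WT, where both control signals were high. Untreated CDKO had 18S values of 6.87 and 8.44 and CDKO at 5 µM 5.51 and 5.83. Between those groups the lower 18S values did not go with higher interferon values. The part of the control signals in the result was not tested. The difference between the line differences did not pass for any of the 5 called genes. Without CDKO untreated replicate 2 the interferon calls fell from 5 to 2, and without any of the other 3 untreated arrays to 0.

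**Figure D4:**
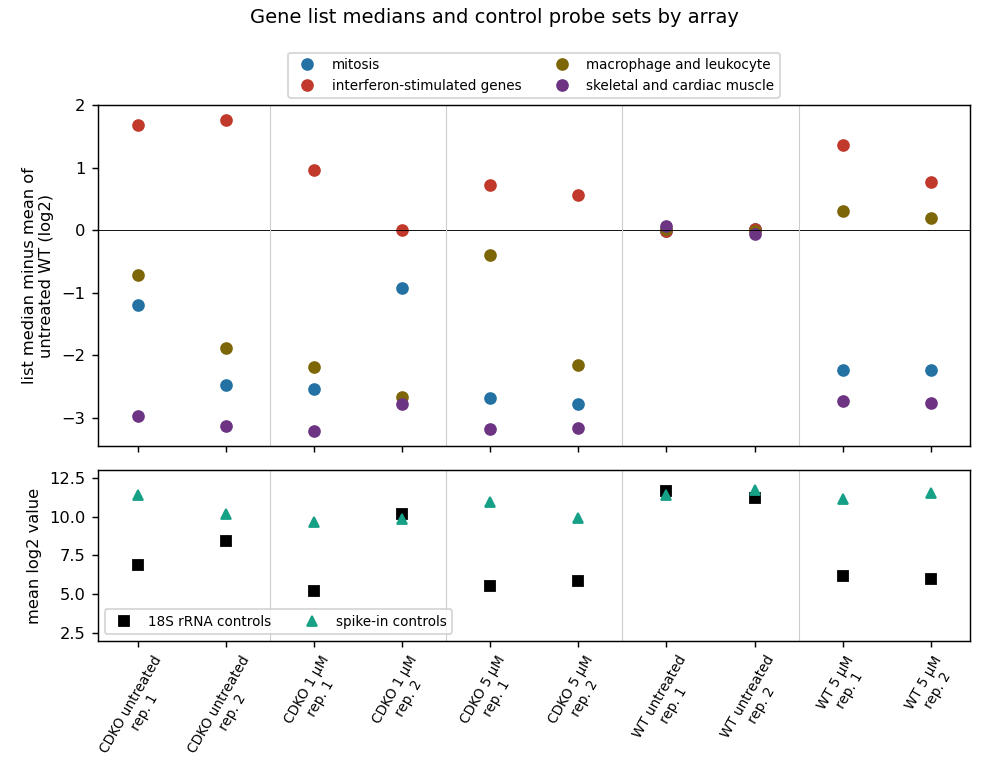
Upper panel, median over the genes of 4 lists of the difference from the untreated WT mean (log2) in each of 10 arrays, with the untreated WT arrays at 0 by construction; lower panel, mean log2 value of the 18S and spike-in control probe sets. Mitosis genes stood at -1.19 and -2.47 in untreated CDKO and at -2.23 and -2.24 in WT cells at 5 µM, and the 18S controls at 11.6 and 11.2 in untreated WT.

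The array plot sets the proliferation shift beside the controls. Mitosis genes stood -1.19 and -2.47 from untreated WT in untreated CDKO, -2.54 and -0.92 in CDKO at 1 µM, and -2.68 and -2.79 in CDKO at 5 µM. WT cells at 5 µM stood at -2.23 and -2.24, so untreated WT had the highest mitotic signal of all groups. The CDKO array at 1 µM with the 18S value of 10.2 had the highest mitotic median outside untreated WT. Replicate 2 of untreated CDKO had the lower spike-in signal and the higher 18S value (8.44 against 6.87). Its mitotic median was lower than that of replicate 1. The muscle median in that array at 1 µM was -2.78, against -3.21 to -2.98 in the other 5 CDKO arrays. In WT cells at 5 µM, with 18S values of 6.16 and 5.98, the muscle median was -2.73 and -2.76. At 5 µM the CDKO minus WT median of the mitosis list was -0.36 with 0 calls.

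Secreted signals and their regulators differed gene by gene. Over all genes 1.99% were called higher and 2.76% lower. Of 14 chemokines 2 were lower, Ccl6 (3.70 and 3.58 against 7.20 and 6.63, -3.28 ± 0.56) and Ccl12 (-2.54 ± 0.55), and no listed chemokine was higher. Ppbp, described above as higher, is a chemokine gene that the list did not hold. Of 11 complement and acute-phase genes Serpina3n was higher while Saa3 and Hp were lower. Saa3, a serum amyloid gene, measured 3.83 and 3.69 against 8.02 and 7.79 (-4.15 ± 0.19), and haptoglobin, Hp, 2.82 and 2.80 against 6.80 and 5.64. Both were at background in the remaining 6 arrays. Ccl6, Ccl12, Saa3, Hp and Serpina3n each reached the filter of 4 through 1 untreated line alone, so their direction followed from their entry. Stromelysin, Mmp3, was the only called matrix protease among 16, at 4.56 and 4.89 against 6.73 and 6.77 (-2.02 ± 0.24), and it was also lower in CDKO at 5 µM (-2.46).

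In growth factor pathways, the insulin-like growth factor receptor Igf1r was 3.21-fold lower (10.05 and 10.31 against 11.95 and 11.78, -1.68 ± 0.35) and its adaptor Irs2 was lower by -1.63 ± 0.31. Of 5 tested Igf1r probe sets all had a negative difference and 2 passed. The other 11 measured genes of this axis did not pass. The Wnt antagonist Sfrp2 was lower (4.59 and 2.45 against 6.91 and 7.18) and the Wnt receptor Fzd4 was 11.1-fold lower (6.77 and 5.33 against 9.26 and 9.78). Fzd4 lay between 5.20 and 6.03 in the remaining 6 arrays. Sfrp2 and Irs2 reached the filter of 4 through untreated WT alone, so their direction followed from their entry. Crim1, a membrane protein that binds bone morphogenetic proteins, was 8.41-fold lower, at 9.91 and 9.11 against 12.33 and 12.84 (-3.07 ± 0.30, adjusted p = 0.00274). WT cells at 5 µM had 11.49 and 11.46, above every CDKO array. The other Crim1 probe set had a smaller baseline difference of -0.98 that did not pass (adjusted p = 0.0586). At 5 µM that probe set measured 9.10 and 9.19 in WT and 9.18 and 8.76 in CDKO. Syndecan Sdc4 was lower at 1 probe set (-2.92 ± 0.59) and gave 0.72 at the other. The cochaperone Dnajb14 was 6.53-fold lower at 1 probe set, while the other had -0.66 and did not pass. None of 24 measured TGF-beta and BMP genes passed.

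Genes that record position in the embryo gave few calls. Of 24 Hox genes 0 passed, and their median was 0.07. The largest differences were 1.68 for Hoxb9 and -1.09 for Hoxc9. Of 25 limb and trunk patterning factors Msx2 was higher (5.03 and 6.20 against 3.80 and 3.58, 1.92 ± 0.41). Tbx2 (-1.83 ± 0.30) and Hand2 (6.89 and 6.38 against 8.15 and 8.30, -1.59 ± 0.27) were lower. The other tested Hand2 probe set had -0.20 and did not pass. Msx2 and Tbx2 each reached the filter of 4 through 1 untreated line alone, so their direction followed from their entry. Calls were thus near the background shares for these lists.

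Sex-linked genes were read in the same way. Xist, the RNA of the inactive X, measured 10.16 and 10.57 against 10.17 and 10.04 at its probe set with the highest mean, and its other 2 probe sets had differences of -2.47 and -1.17 that did not pass. The Y-linked Eif2s3y measured 8.78 and 8.23 against 8.11 and 8.21. Both genes were thus well above background in both lines. Of 8 sex-linked genes Kdm6a was lower (8.20 and 7.12 against 9.62 and 9.61, -1.96 ± 0.40), and the other 7 did not pass. The other tested Kdm6a probe set had -0.57 and did not pass. None of 18 imprinted genes passed.

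Several large systems had no call. These were 35 collagen and matrix genes (median -0.12), 13 integrins (-0.35), 7 smooth muscle genes (-0.03), 20 cholesterol genes (0.17), 20 genes of glycolysis and hypoxia (-0.08) and 27 ribosomal protein genes (0.06). Among 14 targets of NRF2 and the aryl hydrocarbon receptor Nqo1, a quinone-reducing enzyme, was higher (8.93 and 8.74 against 6.69 and 7.07, 1.95 ± 0.30), and the others did not pass. Of 12 let-7 targets Igf2bp3 was lower (-1.19 ± 0.24), but 3 of its 6 probe sets had the opposite sign. The median of the let-7 targets was 0.16.

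The calls were spread over the chromosomes. Autosome medians ran from -0.16 on chromosome 15 to 0.07 on chromosome 14, and the X chromosome had -0.07. The share of genes called higher ran from 1.17% on chromosome 11 to 3.09% on chromosome 13. The share called lower ran from 1.62% on chromosome 19 to 3.85% on chromosome 7.

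The same line contrast in CDKO and WT cells at 5 µM used arrays that the baseline comparison did not. There 128 of the 10434 genes passed (1.23%), 82 higher (0.786%) and 46 lower (0.441%). Over probe sets 299 passed (1.49%). This count fell to 11 and 15 without WT replicate 1 and 2 at 5 µM, to 101 and 123 without CDKO replicate 1 and 2 at 5 µM and to 82 without either untreated WT array, and rose to 487 without either CDKO array at 1 µM. Of the 208 genes higher at baseline, 178 (85.6%) had a positive difference at 5 µM, and of the 288 lower genes 238 (82.6%) had a negative one. Over all genes the sign was shared by 61.4%. The differences were smaller at 5 µM, with medians of 0.58 and -0.32 against 1.52 and -1.86. These genes were chosen by their untreated difference, so smaller medians in other arrays follow in part from the choice. No change of the line difference with OHT is read from these medians. A total of 23 higher genes were called again in the same direction, which is 11.1% of the 208 and 28.0% of the 82. Likewise 20 lower genes were called again, which is 6.94% of the 288 and 43.5% of the 46.

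Of the genes called in both comparisons, 43 had the same direction in each, and Gjb2 and Pdlim2 had opposite directions. Beside Esr1, Cdkn2a, Zfp991, Styk1, Ttc9, Serpina3n, Rnf25 and Nqo1, the higher genes of the 43 included some named after their values were seen. Vnn1, a pantetheinase, measured 7.83 and 7.83 against 5.38 and 4.88, with differences of 2.70 and 2.86 in the baseline and 5 µM comparisons. The membrane glycoprotein Cd200 had 2.17 and 3.03, Niban1 2.38 and 1.77, the lysosomal protein Psap 1.27 and 1.79, and the secreted protease Htra1 1.23 and 1.53. On the lower side Vip had -4.87 and -7.37. The microtubule-associated ubiquitin ligase Mid1 on the X chromosome measured 3.72 and 3.20 against 8.11 and 7.90, with differences of -4.54 and -3.53. Hddc3, a nucleotide hydrolase, had -3.93 and -3.65, S100b -3.89 and -3.19, and Ccl6 -3.28 and -4.41. Further genes named after their values were seen were the adhesion protein Tns1 (-2.27 and -1.67), the interleukin receptor Il1r1 (-1.78 and -1.64), the lipid carrier Fabp7 (-1.72 and -1.88) and the leukocyte gene Ms4a6b (-2.09 and -2.88).

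**Figure D5:**
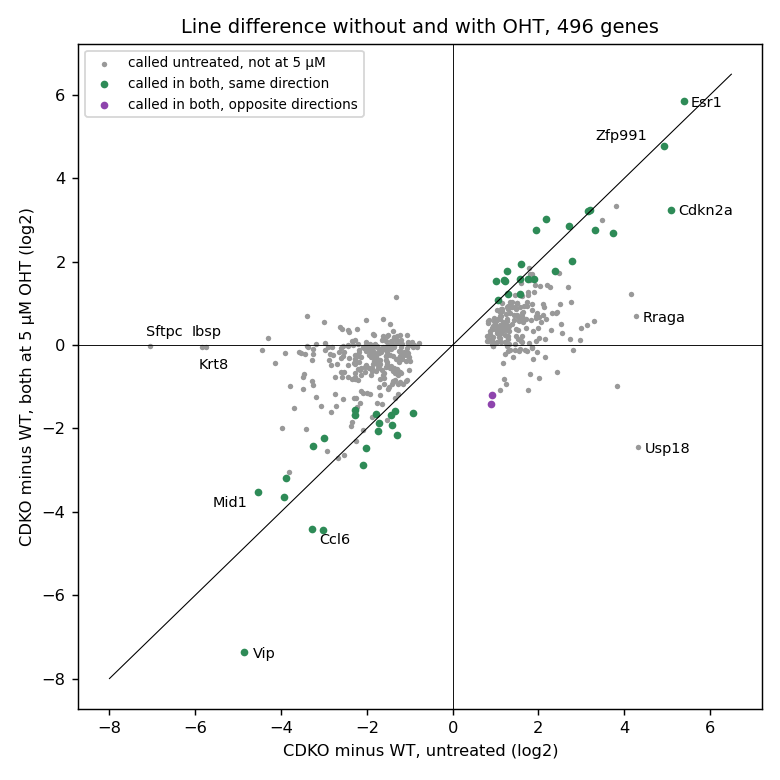
CDKO minus WT difference at 5 µM OHT (vertical axis, log2) against the untreated difference (horizontal axis, log2) for the 496 genes called untreated; the diagonal marks equal differences. Green points are 43 genes called in both in the same direction, violet points Gjb2 and Pdlim2, called in opposite directions, and Sftpc, Ibsp and Krt8 lie near 0 on the vertical axis.

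Some genes differed between the comparisons by the test of that difference itself. It passed for 26 of 10434 genes (0.249%), 2 of them with a higher (0.0192%) and 24 with a lower (0.23%) untreated difference. It passed for 55 probe sets (0.274%), or for 8 to 26 without an array of either 5 µM group, 17 without WT untreated replicate 2, 22 without CDKO untreated replicate 2 and 200 without either array at 1 µM. The filter required a mean of 4 in an untreated group, so it kept genes high in untreated WT alone and removed genes high at 5 µM alone. Of the 55 probe sets 4 were higher and 51 lower. The split was 55 higher and 139 lower with no filter, and 13 and 59 with a mean of 4 in any of the 5 groups, so no direction is read from it. Of the 26 genes, 23 were called at baseline. A total of 21 of these were lower in CDKO. In all 21 both untreated WT arrays lay above the other 8, against 1462 of 10434 genes overall (14.0%). In 20 of the 21 those 8 were all under 4, against 87 of 10434 genes overall. Such genes could reach the filter through untreated WT alone. Both counts follow in large part from the choice, since the calls already set untreated WT above untreated CDKO and WT at 5 µM. Sftpc, Ibsp, Krt8, Gprin3, Myl1 and Saa3 led this set. The remaining 2, the gap junction gene Gjb2 and the actin-associated Pdlim2, were higher in CDKO at baseline (0.90 and 0.92) and lower at 5 µM (-1.41 and -1.20).

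Of 75 named genes that passed, 21 passed again whichever of the 10 arrays was left out. All 75 kept their sign in the alternatives run on them. This followed in part from the choice, since their untreated arrays did not overlap. Leaving 1 array out could not reverse the sign. The 21 were Esr1, Cdkn2a, Zfp991, Styk1, Rnf25 and Spr on the higher side. Of these, Esr1 did not pass with array weights (limma, adjusted p = 0.063) or with the 4 compared arrays alone (0.0501), and Zfp991 did not pass with array weights (0.0556). On the lower side they were Sftpc, Ibsp, Krt8, Vip, Mid1, Gprin3, Myl1, Saa3, Crim1, Cdh1, Upk3b, Actc1, Myh3, Adipoq and Hp. Without WT untreated replicate 1 or 2, 26 or 22 of the 75 still passed, and without CDKO untreated replicate 1 or 2, 48 or 35. Without either WT array at 5 µM 41 passed, without either CDKO array at 5 µM 61, and without either at 1 µM all 75.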

How the data were processed

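Each deposited value is a log2 signal of 1 probe set in 1 array. GCRMA is named in the submitters' processing notes, with version and chip definition not given in the sources used here, and the values themselves showed the log2 scale. GCRMA draws weak signals towards a common floor, so low values are compressed. The description calls all samples conditional knockout, and the titles, which name 4 of them WT, were followed.

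Probe sets were named from the platform annotation. Of 45037, 34945 had 1 symbol, 932 several and 9160 none listed. A group mean of 4 or more in either untreated group was required; the closest values inside and outside were 4.0004 and 3.9998. In R 4.3.3, limma 3.58.1 was fitted to 5 group means over 10 arrays (5 residual degrees of freedom, lmFit, eBayes, Benjamini-Hochberg adjusted p under 0.05 over 20077 probe sets). The pooled spread lies between that of the CDKO and WT arrays. Errors are SE of the model.

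Named genes were those with the largest differences among genes that passed without overlap of arrays: 12 in each direction, 8 in each direction with both means of 6 or more, up to 4 passing members of each list, and Dicer1, Esr1 and sex-linked genes. Clone and model names were passed over. Cdkn1a, Trp53inp1, Mcm3, Mef2c and Ccl6 also had further tested probe sets of the same sign that did not pass. The members, lists and rules were chosen with earlier results of these data known. On simulated data for this comparison (20077 probe sets, 50 changed at each size) the fit recovered 6%, 60%, 76% and 80% of changes of 1, 2, 3 and 4. Of 118 calls there, 7 were on probe sets made without a change. The simulation gave all arrays of a probe set 1 pooled SD. The real median SD was 0.10 in untreated WT and 0.31 in untreated CDKO. The floor of low values and the arrays apart on control signals were not simulated either. These figures therefore hold for the simulated setting only. The alternatives were other filters, array weights, a trended prior, centring or quantile normalization of arrays, 1 probe set per gene, blocks of replicate number or spike-in class, the compared arrays alone, a minimum change of 1, the median over probe sets and each array left out.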

Additional observations from a re-analysis of the deposited data

Results flagged for a closer look

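For 26 genes the untreated CDKO minus WT difference itself differed from that at 5 µM (limma, interaction term, Benjamini-Hochberg adjusted p under 0.05), and 23 of them were also called in the untreated comparison. The other 3, named after their values were seen, were Nrcam (-3.98), Abcc4 (-3.19) and Sfmbt1 (-2.43), which were called higher in CDKO at 5 µM and did not pass untreated. The values that follow are for the 23. The change of the difference was -7.03 for Sftpc, -5.79 for Ibsp, -5.71 for Krt8, -4.48 for Myl1, -4.32 for Gprin3 and -3.72 for Saa3. It was -3.31 for Cdh1, -3.16 for Myh3, -3.05 for Upk3b, -3.04 for Tnni1, -2.92 for Actc1 and -1.91 for Adipoq. These are genes of lung, bone, epithelium, muscle, mesothelium and fat together with Gprin3 and the acute-phase gene Saa3. For genes of cell division it was -2.86 for Knl1, a kinetochore protein, -2.85 for Mybl2, a transcription factor of the late cell cycle, -2.22 for Depdc1b and -2.11 for Ticrr, which acts in replication initiation. It was -2.55 for Selenbp1, -2.55 for Stfa3, -2.54 for the transcription factor Zfp423, -2.04 for Arhgap32 and -2.004 for the intermediate filament gene Synm. The change was positive for Gjb2 (2.31) and Pdlim2 (2.13), which were higher in CDKO when untreated and lower at 5 µM. Over the 23 the adjusted p values ran from 0.000296 for Sftpc to 0.0495 for Arhgap32. The 18S controls were high in the untreated WT arrays, as were the genes with a negative change. Their part was not tested. In the CDKO array at 1 µM with an 18S value of 10.2, Sftpc, Ibsp and Krt8 were at 2.18, 2.70 and 2.94, while Depdc1b was at 3.78 against 3.40 in its replicate and Mybl2 at 2.72 against 2.32.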

How the results depend on the processing

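The count of 1379 probe sets in the untreated comparison became 444 with 1 probe set per gene (fewer tested), 2247 with spike-in class blocked, 117 with a minimum change of 1 and 830 with the 4 compared arrays alone. Leaving out 1 array gave 257 to 3283. At 5 µM the count of 299 became 132 with 1 probe set per gene, 787 with the spike-in block, 21 with a minimum change of 1 and 2 with the 4 compared arrays alone, and 11 to 487 without 1 array. The 55 probe sets whose line difference differed became 194 with no filter, 29 with a filter at 6, 36 with 1 probe set per gene and 13 with a minimum change of 1, and 8 to 200 without 1 array. Replicate differences of the untreated groups correlated at -0.03, so replicate numbers were not taken as pairs. With the replicate block these counts were 1000, 157 and 24, and 56 of the 75 named genes passed. Apart from these rises and falls, the cause of which was not tested, the other filters, prior, centring, quantile normalization and array weights kept each count within 1.5 times. Similar counts did not always mean the same probe sets. In the untreated comparison 1034 passed with no filter, 744 of them among the 1379. With array weights 1857 passed, 1113 of them among the 1379. The shared number was 1347 with centring, 1338 with quantile normalization and 1272 with the other prior. Centring and quantile normalization moved the median difference of all probe sets by 0.0038 and 0.0114. The differences of Xist and Kdm5c, which did not pass, changed sign: Xist to -0.20 with the spike-in block, and Kdm5c to 0.25 with it, -0.51 to 0.31 without 1 array, 0.31 without CDKO untreated replicate 2 and 0.028 without WT untreated replicate 2. Of the 75 named genes, 65 passed with the spike-in block, 44 with the 4 arrays alone and 37 with no filter. The number of arrays limits the precision.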

Other observations

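The probe sets that were not the highest-mean probe set of a gene were called more often than those that were. Among 7611 further probe sets of named genes 3.01% were higher and 5.23% lower in untreated CDKO cells, against 1.99% and 2.76% of the 10434 highest-mean probe sets. Among 2032 without a single gene symbol 2.31% were higher and 10.3% lower. Of the 895 lower calls, 209 came from this last class, 398 from further probe sets of named genes and 288 from highest-mean probe sets.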
